A study of Mus musculus with 12 samples.

Results

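The genes described here are 10 genes through which amino acid supply and cellular stress reach the kinase complex mTORC1, or through which mTORC1 acts on translation. They were chosen by gene symbol, matched to the Ensembl identifiers of the deposited tables through GENCODE M21, and all 10, each protein-coding, were found among the 59136 entries: the sestrins Sesn1, Sesn2 and Sesn3, the Rag GTPases Rragc and Rragd, Flcn (folliculin), Ddit4 (REDD1), Deptor, and the 4E-binding proteins Eif4ebp1 and Eif4ebp2. RNA from mouse lung at day 28 was enriched for polyadenylated transcripts and sequenced in 12 libraries. The 6 Mut libraries came from mice whose isoleucyl-tRNA synthetase gene is given in the series design as IARS1-TYR148CYS/ARG444*, and their genotype label reads IARS1 knockdown. The 6 WT libraries came from mice given as IARS1-WT. Tissue was labelled lung in every library and the cell type field spoke of primary lung cells. The labels did not say whether each library came from its own animal, so p-values measure the spread between these libraries, which may be technical.

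mTORC1 is a kinase complex on the lysosome surface that promotes protein synthesis and growth when amino acids are plentiful. Amino acids act through the Rag GTPases, which bring mTORC1 to the lysosome; sestrins hold back this step when leucine is scarce, and folliculin acts on RagC and RagD to help it. REDD1 and DEPTOR restrain the kinase from other sides, and the 4E-binding proteins are among its best known substrates: without phosphorylation they bind the cap-binding factor eIF4E and hold back translation. Isoleucyl-tRNA synthetase loads isoleucine onto its tRNA, and uncharged tRNA is the classic signal for the other amino acid pathway of the cell, that of GCN2 and the transcription factor ATF4. Sesn2, Ddit4 and Eif4ebp1 are known as genes that ATF4 can induce.

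Upstream sequence is shown for Sesn2 and Flcn, which were higher in Mut lungs by the test described further on, and for Rragc, which was not but holds a motif match. RefSeq promoter entries (build GRCm38.p6) matched 8 of the 10 genes, with 9 entries in all. Eif4ebp1 and Deptor had no entry. The motifs were chosen after the values of these genes were known. They were searched on both strands in the 250 bases before each start: TGATGNAAN, the composite element bound by ATF4 with C/EBP partners; TGACGTCA, the cyclic AMP response element; CACGTG, the E-box of the TFEB family; and TGTTTAC, the forkhead element. Capitals mark a match, and each stretch ends before the annotated first exon of its gene. None of the 4 motifs overlapped another in these windows.
Sesn2, chr4:132510502-132510706, minus strand, 205 bases: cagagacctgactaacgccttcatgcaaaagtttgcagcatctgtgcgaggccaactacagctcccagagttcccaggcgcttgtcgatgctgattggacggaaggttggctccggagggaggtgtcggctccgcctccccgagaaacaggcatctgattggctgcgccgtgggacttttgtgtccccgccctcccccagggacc
Flcn, chr11:59810040-59810289, minus strand, 250 bases: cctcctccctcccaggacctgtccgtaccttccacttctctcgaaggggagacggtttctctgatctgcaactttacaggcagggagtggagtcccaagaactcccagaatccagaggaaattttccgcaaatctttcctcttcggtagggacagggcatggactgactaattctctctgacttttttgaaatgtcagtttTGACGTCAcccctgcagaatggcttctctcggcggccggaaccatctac
Rragc, chr4:123917183-123917432, plus strand, 250 bases: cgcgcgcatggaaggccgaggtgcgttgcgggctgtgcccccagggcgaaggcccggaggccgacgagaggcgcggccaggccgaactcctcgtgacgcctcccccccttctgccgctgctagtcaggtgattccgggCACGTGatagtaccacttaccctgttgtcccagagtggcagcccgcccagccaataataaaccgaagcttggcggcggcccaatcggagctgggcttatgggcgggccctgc

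The Flcn stretch held TGACGTCA from 49 to 42 bases before the start, a motif found in 508 of 32851 promoter windows of the same length (1.55%). Rragc held CACGTG from 112 to 107 bases before the start, against 1978 of the 32851 windows (6.02%). TGATGNAAN was in 1129 windows (3.44%) and TGTTTAC in 1040 (3.17%), and neither was in the windows of the 8 matched genes. A match describes the letters and is no evidence that a factor binds there.

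The libraries held 18870399 to 24014890 counted reads in Mut lungs and 17118716 to 20119498 in WT lungs. Levels are given as CPM, read counts scaled to a common library size after correction by trimmed mean of M-values (TMM) factors, which were 0.968 to 0.990 in Mut and 1.00 to 1.04 in WT libraries and did not overlap. Iars1 itself (listed as Iars) ranged from 41.4 to 71.6 CPM in Mut and from 35.6 to 58.4 CPM in WT lungs (log2 fold change 0.29, SE 0.14, edgeR quasi-likelihood adjusted p = 0.189), and the groups overlapped. All 6 alveolar type 2 markers were detected in every library. All 5 B cell, 6 T cell, 5 erythroid and 5 proliferation markers were lower in Mut lungs by that test, with summed levels of 98.6 to 158 CPM in Mut and 171 to 348 CPM in WT for B cells. Of 5 monocyte markers 4 were lower and none higher, with summed levels of 103 to 282 CPM in Mut and 154 to 295 CPM in WT lungs. In bulk tissue, fewer cells of a type and less RNA per cell cannot be told apart, and the part that cell makeup has in the values below was not tested. A pair of libraries stood apart, 1 in cell type marker sums and 1 in some of the genes described. Mut replicate 7 had the lowest endothelial marker sum (1778 CPM, against 2898 to 3526 in the other Mut and 2752 to 3018 in WT libraries) and the lowest smooth muscle and pericyte sum (354 CPM, against 695 to 1195 in the other Mut and 667 to 765 in WT libraries). Its alveolar type 2 marker sum was the highest (29464 CPM, against 14799 to 19779 in the other Mut and 16623 to 25083 in WT libraries), and its monocyte marker sum of 282 CPM lay above the 103 to 157 CPM of the other Mut libraries, within the WT range. WT replicate 1 stood apart in Ddit4 and Sesn1, as given with those genes.

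Of the 10 genes, 3 were higher in Mut lungs, none was lower and 7 did not pass the test, which was edgeR's quasi-likelihood test with Benjamini-Hochberg adjustment over 19004 genes and a threshold of 0.05. The 3 were Eif4ebp1, raised 1.90-fold, Sesn2, raised 1.89-fold, and Flcn, raised 1.25-fold. No gene of the 10 was lower at an unadjusted p under 0.05 either, whereas Deptor, Rragd and Rragc were higher at it beside the 3 called. That threshold held 5256 of the 19004 genes in either direction. Over all genes tested, 9.89% passed in either direction and 4.57% passed as higher and 5.31% as lower in Mut. All 10 genes passed the filter on low counts. Their fold changes were positive for 8 and negative for 2, with a median log2 fold change of 0.29, beside a median of 0.01 and 51.5% positive over all genes tested. The 6 Mut libraries lay above all 6 WT libraries in 2 of the 10, Sesn2 and Eif4ebp1, and in 2.18% of all genes tested.

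**Figure D1:**
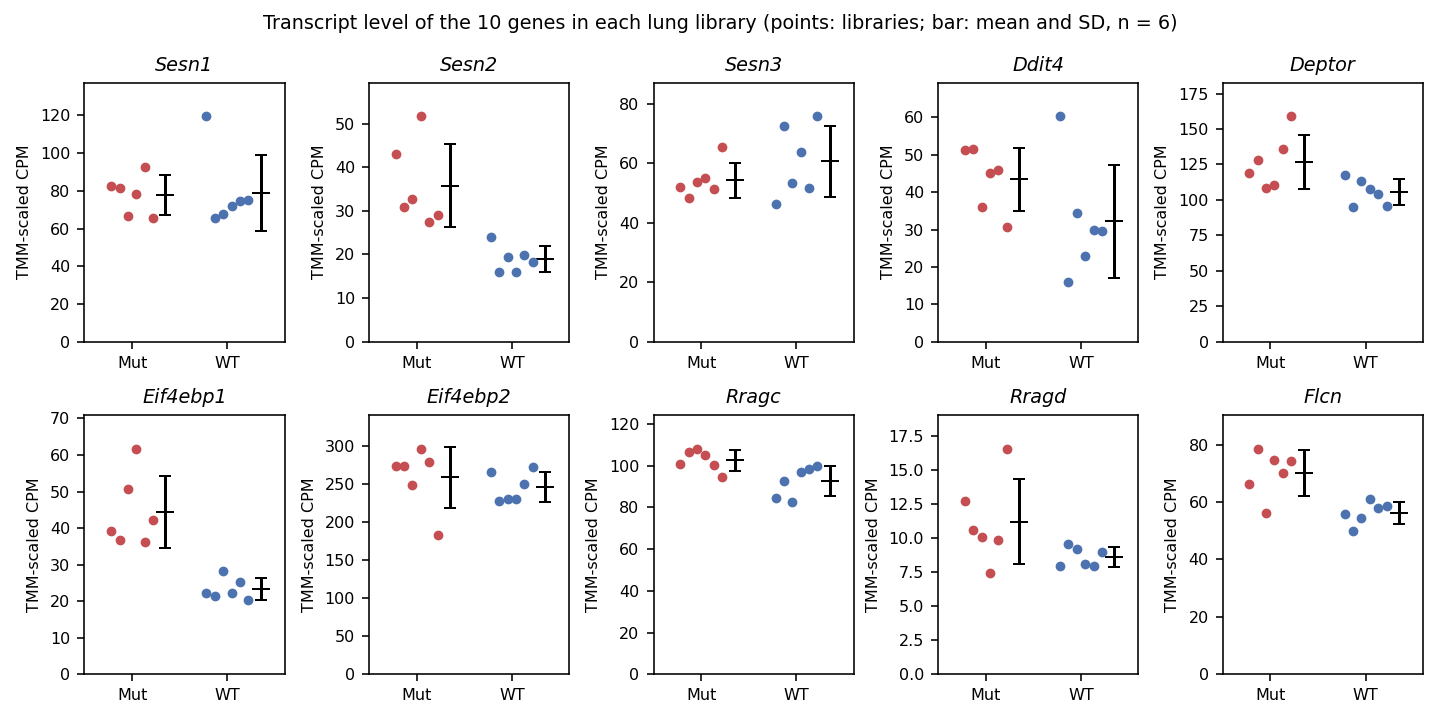
Level of each of the 10 genes (y axis, TMM-scaled CPM from 0) in the 6 Mut libraries (red, left) and the 6 WT libraries (blue, right), with the mean and SD of each group as a bar beside the points. Sesn2 and Eif4ebp1 show no overlap between the groups, and in Sesn1 and Ddit4 a single WT library, replicate 1, stands at 119.5 and 60.3 CPM.

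The sestrins are the leucine-linked inputs: Sesn1 and Sesn2 bind the GATOR2 complex when leucine is low and release it when leucine is bound, and Sesn3 is the third member of the family. Sesn2 (ENSMUSG00000028893, chr4:132492032-132510501, minus strand, GRCm38) had 43.0, 30.9, 32.8, 51.6, 27.3 and 29.1 CPM in Mut replicates 1, 2, 3, 4, 5 and 7. In WT replicates 1, 3, 4, 5, 6 and 7 it had 24.0, 16.0, 19.3, 16.0, 19.8 and 18.4 CPM. Every Mut library lay above every WT library, the closest being Mut replicate 5 and WT replicate 1, and the Mut libraries were spread more widely. Sesn2 averaged 35.8 ± 9.50 CPM in Mut and 18.9 ± 2.99 CPM in WT lungs (SD, n = 6 each), a 1.89-fold increase (95% interval 1.51 to 2.38; log2 fold change 0.92, SE 0.15, edgeR quasi-likelihood adjusted p = 0.0032). Reads per library were 319 to 956.

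Sesn1 (ENSMUSG00000038332, chr10:41809935-41908424, plus strand), the sestrin known for its induction by p53 and FOXO factors, had a lowest, median and highest level of 65.5, 80.0 and 92.8 CPM in Mut and of 65.4, 73.2 and 119.5 CPM in WT lungs. All Mut libraries lay within the WT range, whose upper end was WT replicate 1 alone; the other 5 WT libraries ended at 75.0 CPM, and 4 Mut libraries lay above that. The log2 fold change was -0.02 (SE 0.14, 95% interval -0.31 to 0.27, adjusted p = 0.94). Sesn3 (ENSMUSG00000032009, chr9:14275067-14333101, plus strand), a FOXO target in several cell types, had 48.4, 52.8 and 65.5 CPM in Mut and 46.2, 58.6 and 75.8 CPM in WT lungs. Its groups overlapped too, with WT replicates 3 and 7 above all Mut libraries (log2 fold change -0.16, SE 0.12, 95% interval -0.41 to 0.09, edgeR quasi-likelihood adjusted p = 0.401). A rise of Sesn1 or Sesn3 as large as that of Sesn2 lies outside these intervals.

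RagC and RagD, from Rragc and Rragd, are the alternative partners of RagA or RagB in the heterodimer that recruits mTORC1. Rragc (ENSMUSG00000028646, chr4:123917446-123936997, plus strand) had a lowest, median and highest level of 94.6, 103 and 108 CPM in Mut and of 82.7, 94.6 and 99.95 CPM in WT lungs. In 5 of 6 Mut libraries it was above every WT library, with Mut replicate 7 the exception, but the difference was small (log2 fold change 0.15, SE 0.07, 95% interval 0.00 to 0.30, edgeR quasi-likelihood adjusted p = 0.179). Rragc shares 264 exon bases with 4930535I16Rik on the other strand, which had 0 reads in every library; whether counting used strand is not given. Rragd (ENSMUSG00000028278, chr4:32983037-33022180, plus strand), the lowest of the 10 genes at 138 to 386 reads per library, had 7.46, 10.4 and 16.6 CPM in Mut and 7.93, 8.54 and 9.58 CPM in WT lungs. The Mut libraries spanned a wider range on both sides: replicate 4 lay below all WT libraries, the other 5 lay above them, and replicate 7 was the highest. The log2 fold change was 0.38 (SE 0.16, 95% interval 0.05 to 0.71, edgeR quasi-likelihood adjusted p = 0.129), and 0.24 (adjusted p = 0.228) without Mut replicate 7.

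Folliculin, from Flcn, acts with its FNIP partners as a GTPase-activating protein for RagC and RagD. Flcn (ENSMUSG00000032633, chr11:59791408-59810016, minus strand) had 66.3, 78.5, 56.4, 74.8, 70.2 and 74.4 CPM in Mut replicates 1, 2, 3, 4, 5 and 7. In WT replicates 1, 3, 4, 5, 6 and 7 it had 56.0, 49.8, 54.4, 60.9, 58.0 and 58.6 CPM. All Mut libraries but replicate 3 lay above all WT libraries, and replicate 3 lay within the WT range. The means were 70.1 ± 7.93 CPM in Mut and 56.3 ± 3.87 CPM in WT lungs (SD, n = 6 each; log2 fold change 0.32, SE 0.08, 95% interval 0.14 to 0.49, edgeR quasi-likelihood adjusted p = 0.0285). This call did not hold when Mut replicate 2, 4 or 5 was left out (adjusted p = 0.0696, 0.0656 and 0.055), nor when WT replicate 3, 4 or 6 was left out (0.0686, 0.0558 and 0.0522). The log2 fold change stayed between 0.28 and 0.37 over the 12 fits with 1 library left out. Scaled by library totals alone it was 0.25 (adjusted p = 0.0587).

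REDD1, from Ddit4, is a stress-induced protein that restrains mTORC1 through the TSC complex, and its gene is known to respond to hypoxia, ATF4 and glucocorticoids. Ddit4 (ENSMUSG00000020108, chr10:59949669-59951834, minus strand) had 51.2, 51.4, 36.0, 45.2, 45.8 and 30.7 CPM in Mut replicates 1, 2, 3, 4, 5 and 7. In WT replicates 1, 3, 4, 5, 6 and 7 it had 60.3, 16.0, 34.5, 23.0, 29.8 and 29.5 CPM. The highest of the 12 values was WT replicate 1; the other 5 WT libraries overlapped the Mut range only in replicate 4, whose level lay above Mut replicate 7. With all libraries the log2 fold change was 0.43 (SE 0.25, 95% interval -0.10 to 0.96, edgeR quasi-likelihood adjusted p = 0.269). Without WT replicate 1 it was 0.71 (SE 0.18, adjusted p = 0.0259), but leaving out the highest WT value raises the fold change by itself. Of the 12 fits with 1 library left out, only this 1 called Ddit4 (edgeR quasi-likelihood adjusted p of 0.0259 to 0.421 over the 12). The fit without WT replicate 1 called 4 of the 10 genes, the 3 named above and Ddit4, with 10.4% of all genes called and 4.95% called as higher.

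WT replicate 1 was also apart in Sesn1, at 119.5 CPM against 65.4 to 75.0 CPM in the other 5 WT libraries, and it had the highest Sesn2 of the WT libraries. Without it Sesn1 had a log2 fold change of 0.14 (edgeR quasi-likelihood adjusted p = 0.372) and Sesn2 of 1.00 (adjusted p = 0.00214), while Eif4ebp1 was at 0.92 (adjusted p = 0.00214) and Flcn at 0.31 (adjusted p = 0.0419). Glucocorticoid-induced genes were high in the same library. Zbtb16 had 106 to 318 CPM in Mut lungs, 182 CPM in WT replicate 1 and 13.5 to 65.9 CPM in the other WT libraries. Tsc22d3, the gene of the glucocorticoid-induced leucine zipper, had 738 to 1083 CPM in Mut lungs, 889 CPM in WT replicate 1 and 323 to 623 CPM in the other WT libraries. For Zbtb16 and Tsc22d3, WT replicate 1 lay within the Mut range and above the other WT libraries, and its Ddit4 and Sesn1 also lay above theirs. Fkbp5, also glucocorticoid-induced, had 157 CPM in WT replicate 1, above its 40.5 to 145 CPM in Mut lungs. The high genes were not of that class alone. Among FOXO targets, Irs2 had 71.7 CPM in WT replicate 1, against 38.5 to 51.4 CPM in the other WT libraries. Bcl6 had 42.0 CPM, within their 36.3 to 60.6 CPM. The part of these levels in the Ddit4 and Sesn1 results was not tested.

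**Figure D2:**
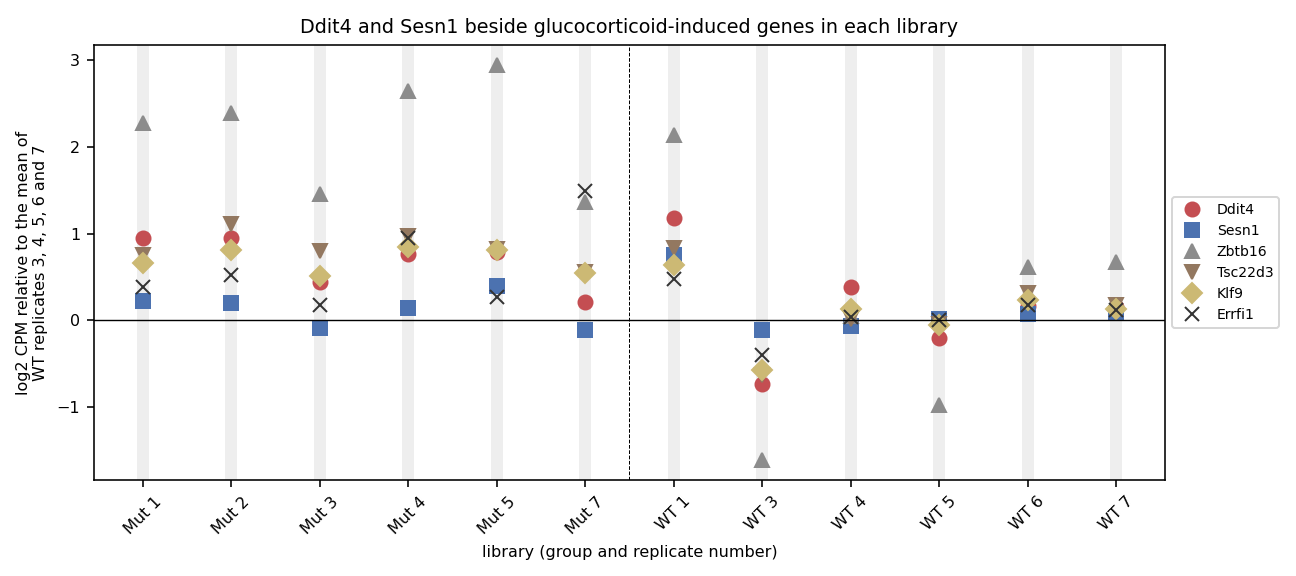
Ddit4, Sesn1 and 4 glucocorticoid-induced genes in each of the 12 libraries (x axis, Mut left of WT), as log2 CPM relative to the mean of WT replicates 3, 4, 5, 6 and 7 (y axis). In WT replicate 1 all 6 genes lie above 0, with Ddit4 at 60.3 CPM against 16.0 to 34.5 CPM in the other WT libraries.

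DEPTOR binds mTOR and holds back its kinase activity. Deptor (ENSMUSG00000022419, chr15:55112317-55259271, plus strand) had a lowest, median and highest level of 108, 124 and 159 CPM in Mut and of 94.7, 106 and 117 CPM in WT lungs. The groups overlapped in Mut replicates 3 and 4, and the highest value was Mut replicate 7. The log2 fold change was 0.27 (SE 0.10, 95% interval 0.06 to 0.47, edgeR quasi-likelihood adjusted p = 0.0895), with adjusted p = 0.0487 without Mut replicate 3 and a log2 fold change of 0.19 (adjusted p = 0.131) without Mut replicate 7. Deptor shares 303 exon bases with Gm9920 on the other strand, which had 8 to 17 reads per library against 1663 to 3702 for Deptor.

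At the output end, the transcript of 1 of the 4E-binding proteins passed the test. Eif4ebp3, a further gene of this family outside the 10, had only 12 to 25 reads per library. It did not pass (log2 fold change -0.44, edgeR quasi-likelihood adjusted p = 0.214). Eif4ebp1 (ENSMUSG00000031490, chr8:27260329-27276674, plus strand), which encodes 4E-BP1, had 39.1, 36.7, 50.7, 61.6, 36.2 and 42.1 CPM in Mut replicates 1, 2, 3, 4, 5 and 7. In WT replicates 1, 3, 4, 5, 6 and 7 it had 22.3, 21.3, 28.4, 22.2, 25.3 and 20.4 CPM. No libraries of the groups overlapped, the nearest being Mut replicate 5 and WT replicate 4, and Mut replicate 4 was the highest of all, as it was for Sesn2. Eif4ebp1 averaged 44.4 ± 9.96 CPM in Mut and 23.3 ± 2.99 CPM in WT lungs (SD, n = 6 each), a 1.90-fold increase (95% interval 1.57 to 2.31; log2 fold change 0.93, SE 0.13, edgeR quasi-likelihood adjusted p = 0.00116). It ranked 54 of 19004 genes by p, Sesn2 136 and Flcn 1192.

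Eif4ebp2 (ENSMUSG00000020091, chr10:61428491-61452661, minus strand), which encodes 4E-BP2, was the most deeply read of the 10 genes, with 4005 to 5477 reads per library. It had a lowest, median and highest level of 183, 274 and 296 CPM in Mut and of 228, 240.2 and 272 CPM in WT lungs. The groups overlapped: 4 Mut libraries lay above all WT libraries and Mut replicate 7 lay below them all. The log2 fold change was 0.07 (SE 0.10, 95% interval -0.15 to 0.30, edgeR quasi-likelihood adjusted p = 0.677), and 0.16 (adjusted p = 0.162) without Mut replicate 7. A change as large as that of Eif4ebp1 lies outside the interval.

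**Figure D3:**
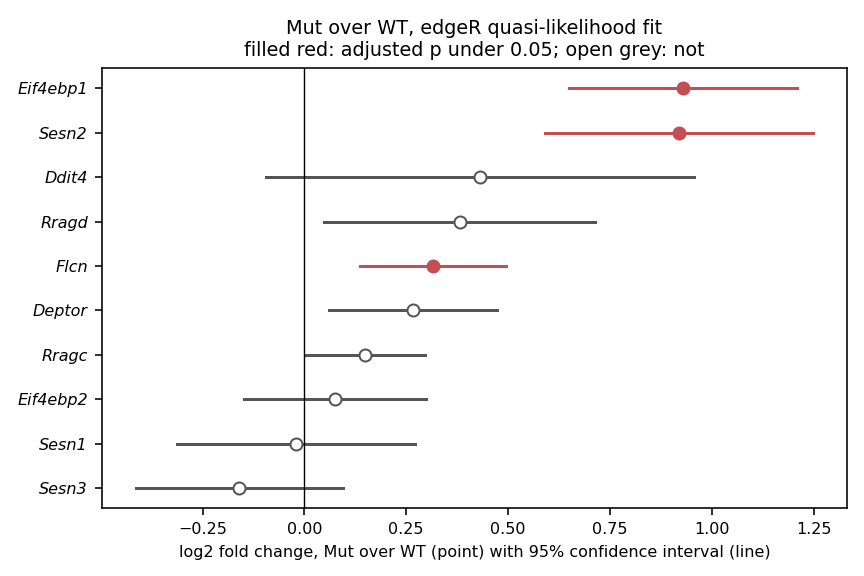
Log2 fold change of Mut over WT for the 10 genes (points) with 95% confidence intervals (lines) from the edgeR quasi-likelihood fit; filled red marks an adjusted p under 0.05. Eif4ebp1 (0.93) and Sesn2 (0.92) stand apart from the other 8 genes, and the widest interval is that of Ddit4 (-0.10 to 0.96).

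On the per-length scale of the deposited FPKM values (fragments scaled to gene length and library total), Eif4ebp2 had the highest mean level of the 10 in both groups, at 43.7 ± 6.86 FPKM in Mut and 43.3 ± 3.48 FPKM in WT lungs. Rragc came next in both, at 29.9 ± 1.40 FPKM in Mut and 28.2 ± 2.30 FPKM in WT lungs. In Mut lungs the order continued with Ddit4 (24.1 FPKM), Eif4ebp1 (19.7), Sesn1 (19.1), Flcn (15.8), Deptor (13.9), Sesn2 (10.1), Sesn3 (3.47) and Rragd (2.12). In WT lungs it continued with Sesn1 (20.2 FPKM), Ddit4 (18.7), Flcn (13.3), Deptor (12.1), Eif4ebp1 (10.8), Sesn2 (5.54), Sesn3 (4.04) and Rragd (1.70). Ranges of neighbours in this order overlapped in Mut lungs except between Sesn2 and Sesn3. In WT lungs they overlapped except between Eif4ebp2 and Rragc, Eif4ebp1 and Sesn2, and Sesn3 and Rragd. Eif4ebp1 thus ranked 4 of 10 in Mut lungs and 7 of 10 in WT lungs.

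The balance between paralogs was compared as the ratio of their FPKM values within each library, a quantity that library scaling does not touch. The 4 ratios were tested with exact permutation tests, two-sided, for which 0.00216 is the smallest p that 6 against 6 libraries allow, and adjusted over the 4. Eif4ebp1 stood at 0.376, 0.354, 0.538, 0.549, 0.341 and 0.606 of Eif4ebp2 in Mut replicates 1, 2, 3, 4, 5 and 7, and at 0.222, 0.246, 0.326, 0.254, 0.267 and 0.197 in WT replicates 1, 3, 4, 5, 6 and 7. All 6 Mut libraries exceeded all WT libraries, by 0.85 on the log2 scale between the group means (exact permutation p = 0.00216, adjusted 0.00433). Within the summed FPKM of the pair, Eif4ebp1 made up 25.5 to 37.7% in Mut and 16.5 to 24.6% in WT lungs. The sum was 49.3 to 77.0 FPKM in Mut and 50.9 to 57.4 FPKM in WT lungs.

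Sesn2 stood at 0.337 to 0.755 of Sesn1 in Mut (median 0.537) and at 0.230 to 0.327 in WT lungs (median 0.280). The groups did not overlap, the log2 difference was 0.90 and the exact permutation p was 0.00216 (adjusted 0.00433). The ratio kept WT replicate 1 among the WT libraries, at 0.230, the lowest of all 12. Relative to Sesn3, Sesn2 stood at 1.96 to 4.13 in Mut (median 2.75) and 0.967 to 2.28 in WT lungs (median 1.32), with a log2 difference of 1.04 (exact permutation p = 0.00433, adjusted 0.00577). In this ratio WT replicate 1, at 2.28, lay above Mut replicate 7, and 5 of 6 Mut libraries lay above all WT libraries. Sesn2 made up 30.6 ± 5.62% of the summed sestrin FPKM in Mut and 18.7 ± 1.78% in WT lungs, Sesn1 58.6 ± 5.66% in Mut and 67.2 ± 4.12% in WT lungs (SD, n = 6 each). Sesn1 thus remained the largest share of sestrin transcript in each group, in a sum of 32.6 ± 3.66 FPKM in Mut and 29.8 ± 5.60 FPKM in WT lungs. These shares rest on the annotated exon length behind the FPKM: 3982 bases for Sesn1, 3475 for Sesn2 and 15269 for Sesn3. In mean CPM, Sesn3 lay above Sesn2 in Mut (54.2 and 35.8) and in WT lungs (60.6 and 18.9).

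Rragd stood at 0.0458 to 0.113 of Rragc in Mut and at 0.0522 to 0.0721 in WT lungs. The log2 difference was 0.19 (exact permutation p = 0.385, adjusted 0.385), with Mut replicates 1 and 7 above all WT libraries and Mut replicate 4 below them. It was 0.04 without Mut replicate 7 and 0.30 without Mut replicate 4 (exact permutation adjusted p = 0.771 and 0.117). Rragc gave 89.8 to 95.6% of the summed FPKM of the pair in Mut and at least 93.3% in WT lungs.

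**Figure D4:**
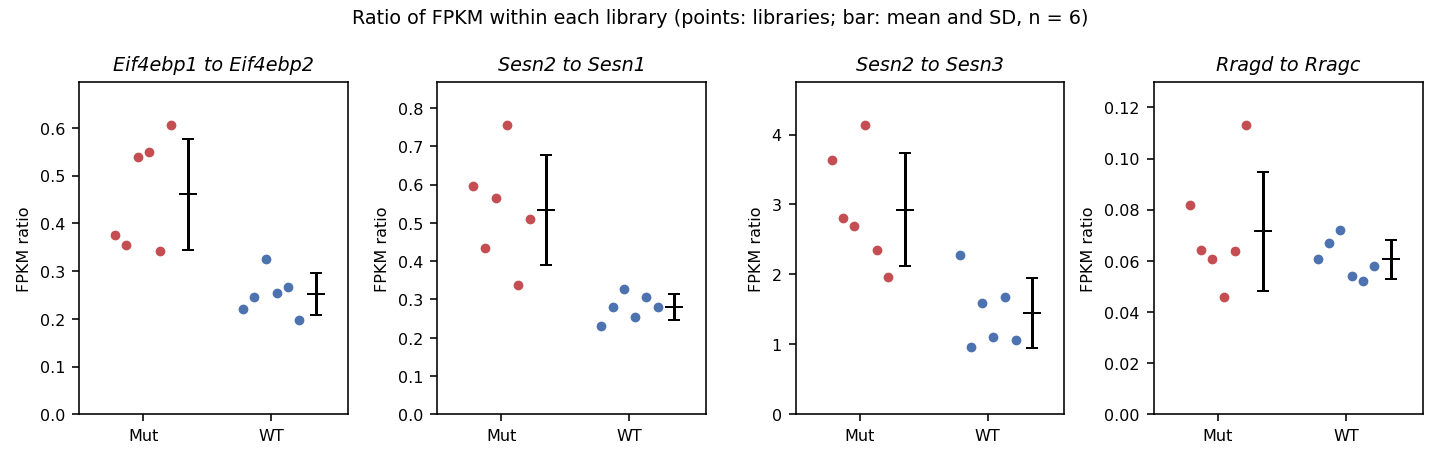
Ratio of FPKM between paralogs within each library (y axis, linear from 0) for Mut (red, left) and WT (blue, right), with group means and SD. The Eif4ebp1 to Eif4ebp2 and Sesn2 to Sesn1 ratios do not overlap between groups, whereas the Rragd to Rragc ratio (0.0458 to 0.113 in Mut, 0.0522 to 0.0721 in WT) does.

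Around these genes, 49 other mTOR pathway genes in 5 lists were tested: 3 were higher in Mut lungs, 2 were lower and 44 did not pass, with a median log2 fold change of 0.09. With 1 library left out the 5 calls became 2 or 3 (without Mut replicate 1, 2, 4 or 5 or WT replicate 3, 4, 5 or 6) or 8 (without Mut replicate 3). The 5 calls are 10.2% called, beside 9.89% of all genes tested. None of the 9 genes of mTORC1 and its switch (Mtor, Rptor, Rheb, Tsc1, Tsc2 and partners) passed, and their median was 0.12. None of the 14 genes of GATOR1, GATOR2, KICSTOR and the other nutrient sensors passed either, with a median of 0.07. At an unadjusted p under 0.05 the same edgeR fit held 2 of these 9 and 2 of these 14 genes. Of all 19004 genes tested it held 5256. Mtor was higher at that threshold, and Tbc1d7, Nprl3 and Kptn were lower. At an adjusted p under 0.05, limma-voom called 0 of the 9 and 0 of the 14, and DESeq2 called 1 of the 9 and 0 of the 14.

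In the list of the Rag GTPases, Ragulator and lysosomal input, 1 of 10 genes was higher and 1 lower, with a median of -0.03. Fnip2, a folliculin partner, had a lowest, median and highest level of 44.9, 52.5 and 59.6 CPM in Mut and of 31.5, 37.8 and 47.8 CPM in WT lungs, so that the groups overlapped only at WT replicate 7 (log2 fold change 0.44, SE 0.10, edgeR quasi-likelihood adjusted p = 0.0168). It moved in the same direction as Flcn, and its call held in each of the 12 fits with 1 library left out. Lamtor4, a Ragulator subunit, had 16.8, 19.9 and 26.9 CPM in Mut and 23.3, 29.5 and 46.9 CPM in WT lungs (log2 fold change -0.55, SE 0.16, edgeR quasi-likelihood adjusted p = 0.0411). That call was lost when Mut replicate 1, 2, 4 or 5 or WT replicate 3, 4, 5 or 6 was left out, with adjusted p between 0.0553 and 0.0914.

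Among the transcripts of 12 outputs of mTORC1, 2 were higher and none lower, with a median of 0.14. These are transcript levels, and neither phosphorylation nor mTORC1 activity was measured. Mitf, a transcription factor of the TFEB family that Rag GTPases bind, had 17.2, 17.6 and 20.4 CPM in Mut and 11.8, 12.9 and 17.1 CPM in WT lungs. All 6 Mut libraries lay above all WT libraries (log2 fold change 0.44, SE 0.10, edgeR quasi-likelihood adjusted p = 0.0164), and the call held with each library left out. Grb10, an mTORC1 substrate that dampens insulin signalling, had 139, 155 and 181 CPM in Mut and 101, 122 and 150.0 CPM in WT lungs (log2 fold change 0.36, SE 0.10, edgeR quasi-likelihood adjusted p = 0.0332). Its call was lost without Mut replicate 2, 4 or 5 or WT replicate 1, 3, 4, 5 or 6, with adjusted p of 0.0537 to 0.0728. Of 4 mTORC2 subunit genes, Prr5l was lower, with 25.6, 27.7 and 34.2 CPM in Mut and 31.5, 37.7 and 46.4 CPM in WT lungs (log2 fold change -0.41, SE 0.11, edgeR quasi-likelihood adjusted p = 0.0326). Without Mut replicate 1 or 2 or WT replicate 3, 4 or 5 its adjusted p was 0.0645 to 0.0814.

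Lists of genes known as targets of regulators that also act on some of the 10 were read in the same fit. Of 12 ATF4 targets, 11 were higher and none lower, with a median log2 fold change of 1.90; Asns, asparagine synthetase, had 96.6 to 166 CPM in Mut and 17.1 to 21.1 CPM in WT lungs (log2 fold change 2.68, edgeR quasi-likelihood adjusted p = 9.87e-09). Eif4ebp1 and Sesn2 thus moved in the same direction as that list, by less than its median. Of 12 TFEB and TFE3 targets, not all of them lysosomal genes, 2 were higher and none lower, with a median of 0.03. They were Gpnmb (19.6 to 23.9 CPM in Mut, 6.83 to 10.3 CPM in WT lungs; log2 fold change 1.35, adjusted p = 1.55e-05), a membrane glycoprotein of lipid-laden macrophages and a known target of TFE3, and Ppargc1a (6.32 to 12.5 CPM in Mut, 4.76 to 6.75 CPM in WT lungs; log2 fold change 0.65, adjusted p = 0.0249). Beside Gpnmb stand the alveolar macrophage markers, of which 1 of 6 was higher and 2 were lower, with a summed level of 508 to 777 CPM in Mut and 389 to 588 CPM in WT lungs; their part in the Gpnmb result was not tested. The call of Ppargc1a was lost without Mut replicate 1 or 5 or WT replicate 3, 4 or 5 (adjusted p of 0.0523 to 0.0574).

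Of 11 p53 targets, which as a class include Sesn1 and Sesn2, 1 was higher (Ccng1, log2 fold change 0.42, edgeR quasi-likelihood adjusted p = 0.0076) and the median was 0.17. Of 11 FOXO targets, 1 was higher (Irs2, 0.54, adjusted p = 0.0359) and the median was 0.37. Of 9 glucocorticoid-induced genes tested out of 10 listed, 2 were higher (Tsc22d3, 0.67, adjusted p = 0.03; Klf9, 0.58, adjusted p = 0.0249) and the median was 0.62. Cdkn1a stands in both the p53 and the glucocorticoid list, with 46.8 to 129.9 CPM in Mut lungs, 111 CPM in WT replicate 1 and 22.8 to 35.9 CPM in the other WT libraries. These 3 lists depended on WT replicate 1: without it 4 of 11 p53 targets, 5 of 11 FOXO targets and 8 of 9 glucocorticoid-induced genes were higher, none was lower, and the medians were 0.12, 0.41 and 0.71. That fit called 4.95% of all genes as higher. For genes whose highest WT value was in that library, such as Cdkn1a, leaving it out raises the fold change by itself. The p53 median was also 0.06 without Mut replicate 7, 0.06 without WT replicate 4 and -0.01 without both WT replicate 1 and Mut replicate 7, and 2 p53 targets were higher without Mut replicate 4. The call of Irs2 was lost without Mut replicate 2, 4, 5 or 7 or WT replicate 3, 4, 5 or 6 (adjusted p of 0.0525 to 0.0837). That of Tsc22d3 was lost without Mut replicate 2, 4 or 5 or WT replicate 4 or 5 (0.051 to 0.0738), and that of Klf9 without Mut replicate 2 or 5 or WT replicate 5 (0.0519 to 0.0628).

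**Figure D5:**
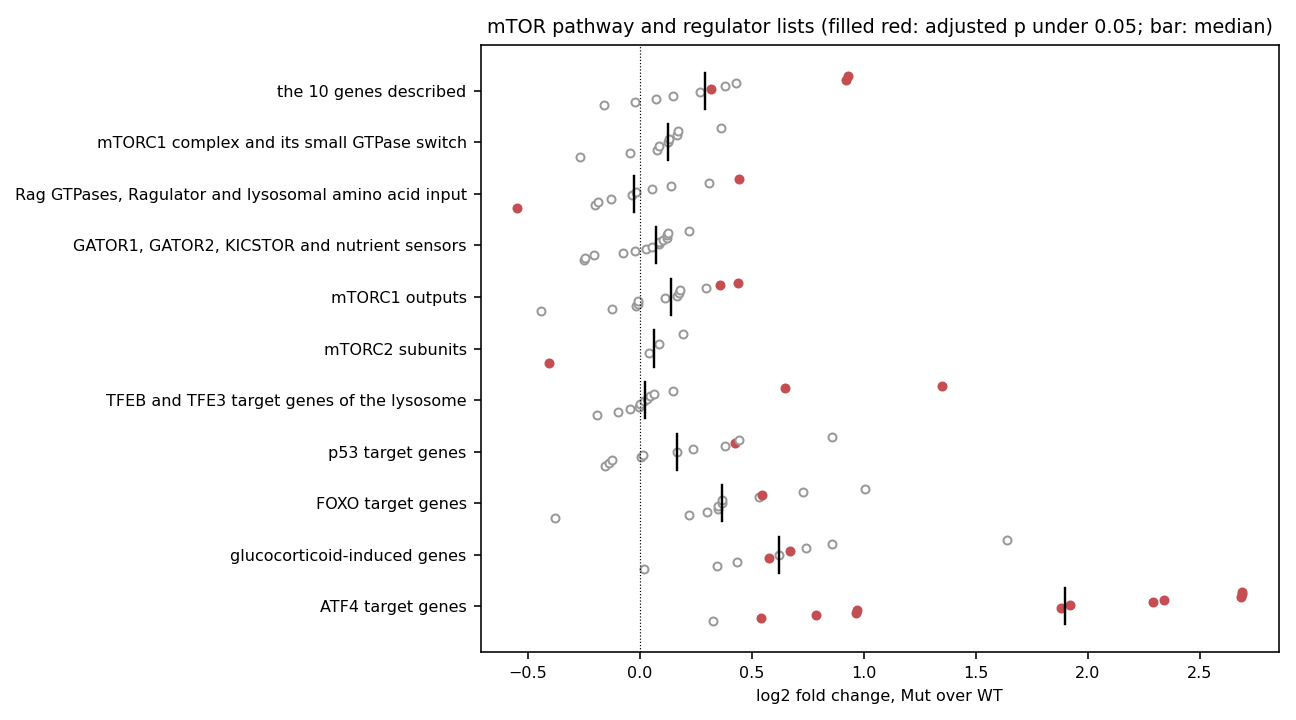
Log2 fold change of Mut over WT (x axis) of each gene of the 10 described, of the 5 mTOR pathway lists and of 5 regulator target lists; filled red marks an adjusted p under 0.05 and black bars mark medians. The pathway lists centre between -0.03 and 0.14, the 10 genes at 0.29 and the ATF4 targets at 1.90.

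Genes whose pattern over the 12 libraries was most like that of the 3 called genes were found by the root mean square difference in log2 CPM relative to the WT mean, over 14382 genes. For Eif4ebp1 they were Slc3a2 (0.15), which is also in the ATF4 list, Jdp2 (0.19) and Slc1a4 (0.20), against a median difference of 0.70 over the genes compared. For Sesn2 they were Cntfr (0.15), Jdp2 (0.19) and Yars (0.22), against a median of 0.71. Jdp2, listed for each of these, had 60.0 ± 11.1 CPM in Mut and 30.5 ± 3.88 CPM in WT lungs (SD, n = 6 each). For Flcn they were Zfp180 (0.09), Zfp110 (0.09) and Zrsr1 (0.10), against a median of 0.34.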

How the data were processed

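Polyadenylated RNA of 12 mouse lung libraries (6 Mut, 6 WT) was sequenced, per the labels' protocols. The authors deposited read counts per gene and FPKM values. The build mm10 and limma are listed in the submitters' processing notes with no role; the sources used here do not give the aligner, counting tool, strand setting or annotation. The deposited FPKM values equal the counts over library totals and a fixed length per gene (relative spread at most 1.3e-07 over 31832 entries with at least 5 reads). Symbols and coordinates came from GENCODE M21 (GRCm38), which named 54409 of 59136 entries; the 4727 others held 0.589 to 0.872% of the counts and stayed in the main fit.

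Counts were filtered with filterByExpr (minimum 10), scaled by TMM and fitted with edgeR 4.0.16 (robust glmQLFit, glmQLFTest) in R 4.3.3 on all 12 libraries with no covariate; p-values were adjusted by Benjamini-Hochberg over 19004 genes. The biological coefficient of variation was 17.4%. Tested on simulated data (18674 genes, libraries grouped as here), the fit found 59 of 66 genes set to differ by a factor of 2 and 30 of 66 set to 1.5, and made 8 false calls. The simulation changed 200 genes, drew libraries independently and held no shift in cell makeup. The real fit called 1879 genes, so these rates may not carry over. Groups were taken from the sample titles. No libraries were identical; correlations within groups were 0.971 to 0.989. Paralog ratios used FPKM and exact permutation tests in Python 3.11.15 with SciPy 1.17.1.

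All 10 genes are named, with every called gene of the 5 pathway lists, up to 4 genes of smallest p from each other list, and for the 3 genes of smallest p the 3 genes of most similar pattern, leaving out predicted genes and those under 1 CPM in both groups. The genes and lists were chosen with earlier results of these data known. Alternatives were RLE, upper-quartile and total scaling, other count filters, DESeq2 1.42.0, limma 3.58.1 (voom, with and without quality weights, and log2(FPKM + 1) or log2(FPKM + 0.1)), a block by replicate number, and each library left out. Leaving out unannotated entries, and WT replicate 1 together with Mut replicate 7, were chosen after seeing the data.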

Additional observations from a re-analysis of the deposited data

Results flagged for a closer look

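Sesn1 in WT replicate 1, at 119.5 CPM, lay far from the other 5 WT libraries, which ranged from 65.4 to 75.0 CPM. The gap to its nearest neighbour was 0.822 of the range of the WT group, above the 95% critical value of Dixon's test for 6 samples. Of 20 groups checked (10 genes in Mut and in WT), it was the only such value, and about 1 in 20 groups passes this limit by chance. Ddit4 in the same library, the highest of the group at 60.3 CPM, did not pass it.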

How the results depend on the processing

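Eif4ebp1 and Sesn2 were called as higher in Mut under all 25 alternatives, with log2 fold changes of 0.79 to 0.99 (adjusted p up to 0.0129) and 0.73 to 1.05 (up to 0.0285). Flcn was called in 13 of 25 (0.23 to 0.37; adjusted p 0.0072 to 0.17), Ddit4 in 3, Deptor in 2 and the other 5 genes in none. Sesn1 changed sign, with 6 of 25 values positive (-0.08 to 0.18). Among the 10 genes, 3 were called, 2 to 4 with 1 library left out, and 5 with voom quality weights, which added Ddit4 (0.85, adjusted p = 0.00985) and Deptor (0.26, 0.0212). Over all genes 1879 were called, 957 to 2368 with 1 library left out, 2391 without both WT replicate 1 and Mut replicate 7, and 4376 (23%) with quality weights. The 5 called pathway genes became 2 to 8 with 1 library left out and 10 with quality weights. The cause was not tested. Higher against lower calls were 869 against 1010, but 648 against 1242 with upper-quartile scaling, 518 against 1513 with totals, 404 against 1508 and 409 against 1485 with log2(FPKM + 1) and log2(FPKM + 0.1), and 639 against 1029 with no filter. With 1 library left out, the log2 ratio differences were 0.76 to 0.93 (Eif4ebp1 to Eif4ebp2), 0.79 to 1.02 (Sesn2 to Sesn1), 0.93 to 1.18 (Sesn2 to Sesn3) and 0.04 to 0.30 (Rragd to Rragc).

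The groups share 5 replicate numbers. Deviations of same-numbered libraries from their group means correlated weakly (0.102, -0.128, -0.144, 0.112 and -0.127). Such correlations cannot exclude that the numbers pair the samples, so results with a replicate block follow. With the replicate block, 107 genes (0.563%) were called over all genes, 2 of the 10 (Eif4ebp1 and Sesn2, not Flcn: 0.29, adjusted p = 0.17) and 0 of the 49 pathway genes. Over the 5 pairs the log2 ratio differences were 0.94 (Eif4ebp1 to Eif4ebp2), 0.97 (Sesn2 to Sesn1) and 1.10 (Sesn2 to Sesn3), positive in 5 of 5 pairs, with adjusted p = 0.0833 for each of these in an exact sign-change test, which cannot go below 0.0625 before adjustment. For Rragd to Rragc it was 0.17, positive in 3 of 5 pairs (exact sign-change test, adjusted p = 0.562).

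Rragd had the fewest reads of the 10 genes (138 to 386 per library), with an SE of 0.16 on the log2 scale; Ddit4, with 334 to 1215 reads, had the largest SE of the 10, 0.25.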

Other observations

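Adipocyte markers stood apart from the lymphoid and erythroid ones in direction: 3 of 5 were higher in Mut lungs and none was lower by the edgeR quasi-likelihood test, with summed levels of 25.1 to 156 CPM in Mut and 11.2 to 43.7 CPM in WT libraries. Secretory airway and gland markers had 3 of 5 higher and none lower, and fibroblast markers 2 of 5 higher and none lower. Their summed levels overlapped between the groups. Secretory sums were 10532 to 20262 CPM in Mut and 13360 to 22554 CPM in WT libraries. Fibroblast sums were 1857 to 2632 CPM in Mut and 1808 to 2418 CPM in WT libraries.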
